A study of Bos taurus with 30 samples.

Results

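Open chromatin regions of bovine germinal vesicle (GV) oocytes were followed into the cleavage embryo, and those that were first shared with an embryo at the 8-cell stage are described here. Regions of a stage were made from ATAC-seq peaks of its 3 libraries, merged where they shared 1 bp and kept where peaks of at least 2 libraries contributed. The described regions were selected on these peaks: they are GV oocyte regions that overlap no region of 2-cell and no region of 4-cell embryos but overlap a region of 8-cell embryos, and they are called 8-cell-first oocyte regions. There were 10420 of them, which is 31.2% of the 33347 regions of GV oocytes. With longer lists shortened to the 14355 peaks of the shortest 4-cell control list, 1292 regions met the rule. The name refers to this rule alone, since peaks of a single 4-cell library were present at many of them, as described further on.

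ATAC-seq inserts sequencing adapters where DNA is accessible to a transposase, so that promoters, enhancers and other regulatory elements that are not packed by nucleosomes give peaks. A GV oocyte is arrested in prophase of the meiotic divisions and holds the maternal RNA and protein that run the embryo until its own genome is transcribed. In cattle the major wave of embryonic genome activation falls around the 8-cell stage, and the embryo before it divides with little transcription. Blastomeres then compact into a morula, and the blastocyst that follows holds the inner cell mass (ICM), the source of the fetus and of embryonic stem cells (ESC).

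Libraries of oocytes and embryos came from pools of at least 500 cells and those of ESC from far more cells, with 3 replicates for each of 10 groups. GV oocytes were taken before maturation, in vitro produced embryos at the 2-cell stage (30 to 32 h after insemination), the 4-cell stage (2 days), the 8-cell stage (3 days) and as morulae (5 days), ICM cells were freed from blastocysts (7 days) by immunosurgery, and ESC were cultured lines on mouse feeder cells. A further set of 2-, 4- and 8-cell embryos had α-amanitin, which blocks RNA polymerase II, in the medium at 50 µg/ml from day one, and these are the transcription blocked embryos (TBE). Replicates of oocytes and embryos were separate collections, TBE and control embryos were cultured side by side, semen was from a Holstein bull, and libraries of GV oocytes, 2- and 4-cell embryos were amplified with more PCR cycles than those of 8-cell embryos and morulae.

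The lists differed widely in length, which sets how often any region can meet a peak. GV lists held 40132, 42596 and 44678 peaks and 8-cell control lists 125253, 128958 and 156569. The 4-cell control lists held 42012, 22983 and 14355 peaks, so that replicate 1 stood apart, and the 2-cell control lists no more than 6440. Among TBE, the 8-cell lists held 90890, 247513 and 50090 peaks, and replicate 2 was the longest list of all. Lists of morula held 142231 to 207459, of ICM 84773 to 116791, and of ESC 39333, 142643 and 99432 peaks. Read numbers of single libraries were not used here, so that depth was not compared and only the lengths of the lists are given.

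At the sites that chose them, the 8-cell-first oocyte regions were of ordinary strength. Their fold enrichment, which relates the signal of a peak to its surroundings in that library as a mean over the peak, had a median of 4.18 in GV oocytes and of 4.12 in 8-cell controls, and it was higher in oocytes at 5431 of them (52.1%). Their median length was 676 bp, with 25% below 371 bp and 25% above 1032 bp, and together they spanned 7.94 Mb. The 8-cell region over such a site was wider, with a median of 920 bp against 570 bp for 8-cell regions with no counterpart in GV oocytes, 2- or 4-cell embryos, which are called new 8-cell regions. Coverage of the oocyte region by 8-cell regions had a median of 91.2%, and 3758 oocyte regions (36.1%) lay wholly inside an 8-cell region. A smaller number, 1893 (18.2%), had less than 50% of their length covered. Counting the longest 8-cell region at each site, the 8-cell-first oocyte regions met 10359 of the 120364 regions of 8-cell embryos, or 8.61%.

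Sorted by where they were met again, classes of oocyte regions differed in strength. Those with a 2-cell region numbered 628 and had a median GV fold enrichment of 5.84. The 10221 regions with both a 4-cell and an 8-cell region but no 2-cell region, called oocyte regions reopened at 4-cell, had 4.87, and the 675 with a 4-cell but no 2- or 8-cell region 4.06. The 8-cell-first oocyte regions, with 4.18, lay between these. The 5099 regions that were met only in morula, ICM or ESC had 3.89, and the 6304 that met no region of a later stage had 3.81. Peaks in all 3 GV libraries were present at 88.3% of the regions reopened at 4-cell, at 58.0% of the 8-cell-first regions and at 27.8% of those never met again. Over all oocyte regions that share was 59.0% and the median fold enrichment 4.22, so the 8-cell-first regions were near oocyte regions in general in both. The classes were selected on the same oocyte, 4-cell and 8-cell peaks, and these values describe them without a test. For all oocyte regions, the share that overlapped a 4-cell region was 34.5% and the share that overlapped an 8-cell region 63.7%.

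The border of the rule ran through a dense part of the data. Of the 8-cell-first regions, 7845 met peaks of all 3 8-cell control libraries, with a median 8-cell fold enrichment of 4.38, and 2195 met peaks of 2, with 3.56. Another 380 met a peak of 1 library and belonged because the merged 8-cell region reached beyond them. Just outside, 2636 oocyte regions without a 2-, 4- or 8-cell region met a peak of 1 8-cell control library, with a median of 3.16. On the side of the 4-cell stage, 6377 of the 8-cell-first regions (61.2%) met a peak of 1 4-cell control library, at a median fold enrichment of 4.08. Just outside, 5554 regions reopened at 4-cell met peaks of 2 of the 3 libraries, with a median of 4.31.

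The 4-cell replicates contributed very unequally to these single peaks. Replicate 1 had a peak at 5766 of the 8-cell-first oocyte regions (55.3%), replicate 2 at 617 (5.92%) and replicate 3 at 260 (2.50%). Over all oocyte regions the shares were 57.5%, 32.9% and 22.0%, so that of replicate 1 at the 8-cell-first regions was close to that of oocyte regions in general, and those of replicates 2 and 3 were lower, as the rule favours. In 2-cell controls 54 (0.518%), 39 (0.374%) and 374 (3.59%) of the 8-cell-first regions met a peak, against 2.00%, 2.36% and 9.60% of all oocyte regions. No peak in any 2- or 4-cell control library was present at 3836 of them (36.8%), and for the others the data go against the reading that they were closed in all 2- and 4-cell embryos. The tested comparisons below were therefore also computed for these 3836 regions, and differences that moved more than 1.5-fold are given. Exceptions were ICM against morula, ESC against ICM and the tests within morula, ICM or ESC alone, which were not recomputed. The use of these 3836 regions was chosen after the data were seen, as was leaving out single libraries of TBE and ESC.

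**Figure D1:**
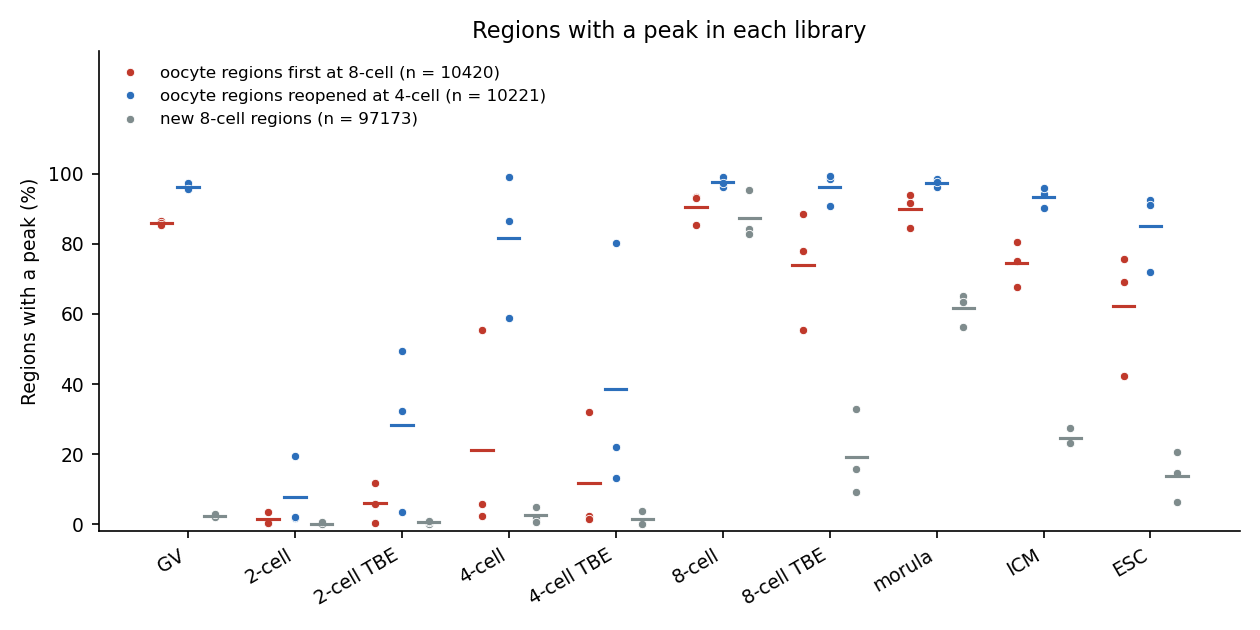
Share of regions with a peak in each of the 30 libraries, in percent, for 8-cell-first oocyte regions, oocyte regions reopened at 4-cell and new 8-cell regions; points are libraries and bars are means of 3. The 8-cell-first regions met a peak at 55.3% in 4-cell replicate 1 and at 5.92% and 2.50% in the other 4-cell control libraries, and the shares in GV, 2-, 4- and 8-cell control libraries follow from how the regions were chosen.

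Along the genome, 8-cell-first oocyte regions were present on each of the 29 autosomes and on the X chromosome. They made up a median of 30.5% of the oocyte regions of an autosome, from 25.7% on chromosomes 21 and 26 to 37.5% on chromosome 18. On the X chromosome they made up 398 of 967 oocyte regions (41.2%), above every autosome, and on unplaced scaffolds 115 of 656 (17.5%). Chromosomes 18 and 19 held the largest numbers, 591 and 557. The nearest 4-cell region lay at a median distance of 37.4 kb from an 8-cell-first region, compared with 60.5 kb from a new 8-cell region and 52.4 kb from oocyte regions met at no cleavage stage. A 4-cell region lay within 10 kb of 16.0%, 12.1% and 11.8% of these regions. Neighbouring regions are not independent of each other, and no test was made of these positions.

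Whether these oocyte sites opened when transcription was blocked was asked in 8-cell TBE, whose lists the rule did not use. As controls had chosen the regions, each 8-cell control replicate was held out in turn, and the regions were made again from the other 2, with both required for an 8-cell region. This gave 8699, 9432 and 8632 regions with replicates 1, 2 and 3 held out. The held-out control libraries had a peak at 92.4%, 84.2% and 92.8% of them, and TBE libraries at 79.9%, 89.1% and 58.1% (replicates 1, 2 and 3, averaged over the 3 sets). Replicate 2 of TBE, the longest list, lay above control replicate 2, and the groups overlapped. The means were 75.7% ± 16.0 in TBE and 89.8% ± 4.86 in held-out controls (SD, n = 3 each), a difference of -14.1 percentage points (exact two-sided permutation test, p = 0.200, where 3 against 3 libraries cannot go below 0.100). The regions remained chosen on peaks of other control embryos of the same stage, so a part of any deficit in TBE cannot be told apart from that choice. Without replicate 3 the difference was 1.89 points, in the other direction, without replicate 1 it was -7.95 points, and for regions without any 2- or 4-cell control peak it was -24.6 points. The groups were apart, with p = 0.100 in the exact permutation test, at -24.5 points with all 8-cell lists shortened to the 50090 strongest peaks, -25.4 with a −log10 q and -37.6 with a fold enrichment of at least 3, and -50.5 with longer lists shortened to 14355 peaks, and the part of list length in the difference was not tested further.

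For most 8-cell-first oocyte regions a peak was present in blocked 8-cell embryos, but a smaller share had one when weak peaks were left out. The mean share in 8-cell TBE was 75.7%, against 89.8% in held-out controls. With a fold enrichment of at least 3 these means were 51.2% and 88.8%. With longer lists shortened to the shortest 4-cell control list they were 35.5% and 86.0%. Peaks of 8-cell TBE replicate 2 had a median fold enrichment of 2.49, the lowest of all libraries. The counts that follow use all peaks. Of 10420, 5440 (52.2%) had a peak in all 3 8-cell TBE libraries, 2676 in 2, 1414 in 1 and 890 (8.54%) in none. Over all 8-cell regions 19.0% had a peak in all 3 TBE libraries and 52.7% in none. Single TBE libraries had a peak at 77.8%, 88.4% and 55.3% of the 8-cell-first regions, at 71.6%, 84.5% and 53.9% of all oocyte regions and at 98.5%, 99.4% and 90.8% of the regions reopened at 4-cell, contrasts that were not tested. Over all oocyte regions 51.4% had a peak in all 3 TBE libraries, so the share among the 8-cell-first regions was near that of oocyte regions in general. None of the 3 had a peak at 12.7% of all oocyte regions. A set of 561 regions (5.38%) had a peak in all 3 controls and in no 8-cell TBE library, against 32.3% of all 8-cell regions and 1.75% of all oocyte regions. A peak in all 6 libraries was present at 4569 (43.8%), against 16.4% and 41.4%. As the rule used the 8-cell controls, nothing is read from these counts. Among the 3836 regions without any 2- or 4-cell control peak, 1182 (30.8%) had a peak in all 3 TBE libraries and 644 (16.8%) in none.

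The response to the block was then set against that of new 8-cell regions, which were made with the same replicate held out. New 8-cell regions had a peak at 79.9%, 78.3% and 93.1% in held-out controls and at 16.0%, 32.6% and 9.53% in TBE. The 8-cell-first oocyte regions exceeded them by 63.9, 56.5 and 48.5 percentage points in TBE libraries and by 12.5, 5.88 and -0.345 points in held-out controls. The excess was 56.3 ± 7.68 points in TBE and 6.02 ± 6.44 points in controls (SD, n = 3 each), and it was larger in every TBE library than in any control. The difference between these was 50.3 points (exact two-sided permutation test, p = 0.100, the smallest that 3 against 3 allow). Held-out controls were at 78.3% or more for new 8-cell regions, which left little room for an excess there and favours this difference in percentage points. New 8-cell regions were also chosen on 8-cell control peaks without a GV region, and the 8-cell-first regions on both. The part of this choice in the difference was not tested, so the difference is not read as a response to the block alone. On the scale of log odds, an alternative added after the data were seen, the excess was 2.81 in TBE and 0.486 in controls, a difference of 2.33 with the groups apart (p = 0.100 in the exact permutation test). In points, the difference was smaller with longer lists shortened to their 14355 strongest peaks, at 23.0 points, and with regions from any 1 replicate, at 30.4 points (exact permutation tests, p = 0.100 each).

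**Figure D2:**
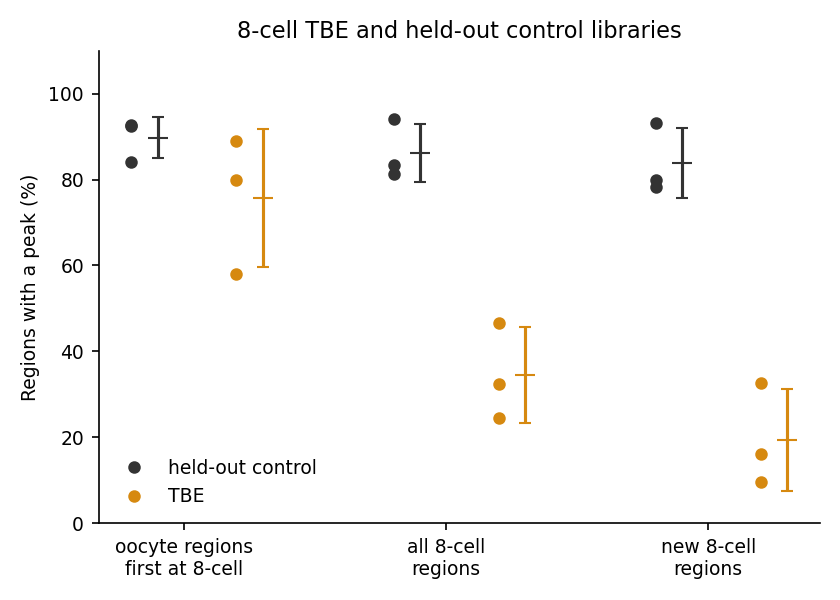
Share of regions with a peak in 8-cell TBE and in held-out 8-cell control libraries, in percent, with 3 libraries each; horizontal marks and error bars are mean ± SD. TBE libraries lay between 58.1% and 89.1% for 8-cell-first oocyte regions and between 9.53% and 32.6% for new 8-cell regions, while held-out controls were at 78.3% or above for all 3 kinds of regions.

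Blocked embryos of the earlier stages were examined in the same way, since their lists were not used by the rule either. In 2-cell TBE 0.432%, 5.68% and 11.8% of the 8-cell-first oocyte regions met a peak, and in 4-cell TBE 31.9%, 2.43% and 1.42% (replicates 1, 2 and 3). For new 8-cell regions the shares in the same libraries were 0.0278%, 0.579% and 1.05%, and 3.94%, 0.211% and 0.158%. The 8-cell-first regions were thus met more often than new 8-cell regions in 6 of 6 libraries, by a ratio between 8.09 and 15.5. Over all oocyte regions, however, the shares were 2.21%, 14.0% and 21.6% in 2-cell TBE and 40.5%, 9.28% and 5.94% in 4-cell TBE, above those of the 8-cell-first regions in 6 of 6 libraries. Over all 8-cell regions they were 0.614%, 4.27% and 6.79%, and 14.0%, 2.72% and 1.76%, above the 8-cell-first regions in 3 of 6. The difference from all oocyte regions and from all 8-cell regions was not tested. New 8-cell regions had been chosen without a GV region, and the part of this choice in the difference from them was not tested either. The mean difference from new 8-cell regions was 7.95 percentage points (exact two-sided sign-flip permutation test over 6 libraries, p = 0.0312, the smallest it allows). It rested in size on 4-cell TBE replicate 1, the longest of these lists, without which it was 3.95 points (exact sign-flip test, p = 0.0625, the smallest for 5 libraries). It ran from 2.18 points with regions from any 1 replicate (p = 0.0312, same exact test over 6 libraries) to 18.0 points without replicate 2 (p = 0.125, the smallest the exact test allows for 4 libraries), and was 3.42 points for regions without any 2- or 4-cell control peak.

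After the 8-cell stage most of these oocyte sites stayed accessible. Morula libraries had a peak at 84.5%, 93.8% and 91.7% of the 8-cell-first oocyte regions, ICM libraries at 75.0%, 67.6% and 80.6%, and ESC libraries at 42.2%, 75.7% and 69.0%. All ICM and ESC libraries lay below all morula libraries, while ICM and ESC overlapped. The mean of ESC, 62.3% ± 17.7, differed from that of morula, 90.0% ± 4.87, by -27.7 percentage points, and that of ICM, 74.4% ± 6.51, by -15.6 points (SD, n = 3; exact two-sided permutation tests, p = 0.100 each, adjusted over 3 pairs by Benjamini-Hochberg 0.150). ESC and ICM differed by -12.1 points (exact permutation test, p = 0.500, adjusted 0.500). For all 8-cell regions the means were 67.8%, 35.9% and 25.0% in morula, ICM and ESC, with a difference of -42.8 points between ESC and morula. For all oocyte regions the means were 70.5%, 62.4% and 56.0%, a smaller step than at the 8-cell-first regions, and neither of these contrasts was tested. Over all oocyte regions, whatever their class, morula libraries had a peak at 65.0%, 75.5% and 70.8%, ICM libraries at 62.3%, 57.7% and 67.1% and ESC libraries at 40.4%, 66.4% and 61.3%, so the 8-cell-first regions lay close to oocyte regions in general in ESC. ESC replicate 1 had the shortest list of these stages, and without it ESC differed from morula by -17.7 points (exact permutation test, p = 0.100). With replicate 1 left out of every stage, and so of the rule, the difference was -13.0 points. It was -17.3 points with regions from all 3 replicates and -16.0 points with longer lists shortened to 14355 peaks (exact permutation tests, p = 0.100 each). Larger differences were -33.3 points with regions from any 1 replicate and -39.7 points for regions without any 2- or 4-cell control peak (exact permutation tests, p = 0.100 each).

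Regions shared by at least 2 replicates gave the same picture site by site. Of the 8-cell-first oocyte regions 9651 (92.6%) overlapped a morula region, 8021 (77.0%) an ICM region and 7059 (67.7%) an ESC region. The shares for all 8-cell regions were 68.8%, 35.8% and 25.5%. All of morula, ICM and ESC had a region at 6258 of the 8-cell-first sites (60.1%), against 20.0% of all 8-cell regions and 50.6% of all oocyte regions. Another 1635 (15.7%) were shared with morula and ICM, 1157 (11.1%) with morula alone and 601 (5.77%) with morula and ESC, against 14.9%, 30.0% and 3.87% of all 8-cell regions, so that the share with morula and ICM was near that of the stage. None of the 3 had a region at 503 of them (4.83%), against 28.9% of all 8-cell regions. Peaks in every single library of GV oocytes, 8-cell controls, 8-cell TBE, morula, ICM and ESC were present at 1751 (16.8%), against 6.88% of all 8-cell regions and 24.5% of all oocyte regions, and the rule used part of these libraries.

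The comparison with new 8-cell regions was tested within each library of morula, ICM and ESC, none of which the rule used. The regions themselves were still chosen to differ, as new 8-cell regions had no GV region and the 8-cell-first regions had one. The part of this choice in the difference was not tested, and the test over libraries addresses only whether they shared a direction. New 8-cell regions had a peak at 56.2%, 65.1% and 63.4% in morula, at 23.1%, 23.3% and 27.6% in ICM and at 6.25%, 20.6% and 14.6% in ESC. The 8-cell-first oocyte regions had more in 9 of 9 libraries, by 28.4 percentage points on average in morula, 49.7 in ICM and 48.5 in ESC (exact sign-flip permutation tests, p = 0.25 each, the smallest for 3 libraries). Over the 9 libraries the mean difference was 42.2 points (exact two-sided sign-flip permutation test, p = 0.00391, the smallest it allows). As a ratio within a library it ran from 1.44 in morula replicate 2 to 6.75 in ESC replicate 1. With regions from any 1 replicate the mean difference was 22.6 points (p = 0.00391, same exact test).

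Oocyte regions reopened at 4-cell were met still more often. Their shares were 96.1%, 98.5% and 97.7% in morula, 94.3%, 90.1% and 95.9% in ICM and 71.9%, 92.5% and 91.1% in ESC. The 8-cell-first oocyte regions had fewer in 9 of 9 libraries, with mean differences of -7.42 percentage points in morula, -19.0 in ICM and -22.9 in ESC (exact sign-flip permutation tests, p = 0.25 each). Over all 9 the difference was -16.4 points (exact two-sided sign-flip permutation test, p = 0.00391, the smallest it allows). Regions reopened at 4-cell had been chosen for a 4-cell region as well, and 88.3% of them had peaks in all 3 GV libraries, against 58.0%. Apart from the weighting that follows, the part of this choice in the difference was not tested. With the regions reopened at 4-cell weighted to the oocyte lengths and fold enrichments of the 8-cell-first regions it was -9.89 points, and with regions from all 3 replicates -6.84 points, while for regions without any 2- or 4-cell control peak it was -30.1 points (p = 0.00391 for each, same exact test). It was -7.67 points without replicate 1 and -10.1 points without replicate 2 of every stage. With regions from any 1 replicate it was -35.1 points, and with a −log10 q of at least 3 it was -8.19 points (p = 0.00391 for each, same exact test over 9 libraries). All of morula, ICM and ESC had a region at 87.9% of the regions reopened at 4-cell and at 7.66% of new 8-cell regions, between which the 8-cell-first oocyte regions stood with 60.1%.

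**Figure D3:**
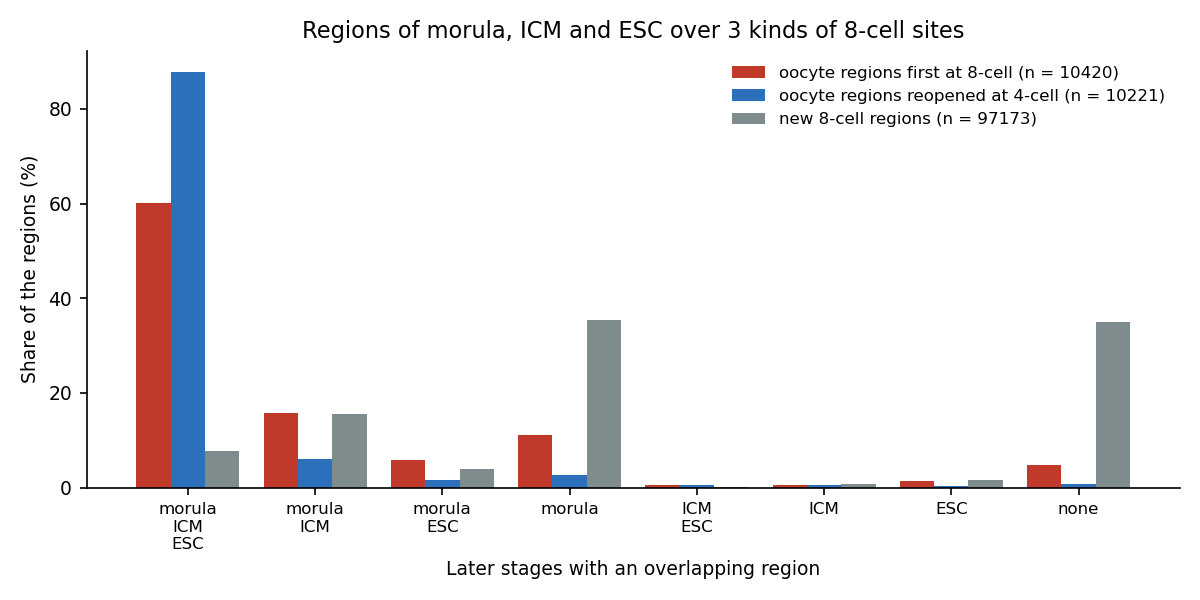
Share of 8-cell-first oocyte regions, oocyte regions reopened at 4-cell and new 8-cell regions that overlap each combination of morula, ICM and ESC regions, in percent of the regions of each kind. The 3 later stages together hold 60.1% of the 8-cell-first regions, 87.9% of the regions reopened at 4-cell and 7.66% of new 8-cell regions.

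Among the 8-cell-first oocyte regions, those with stronger oocyte peaks were met more often in later libraries. The regions were divided into 5 groups of 2084 by their mean GV fold enrichment, with values of 2.17 to 3.66 in the lowest and 4.88 to 8.72 in the highest. From the lowest to the highest group the mean share with a peak went from 48.9% to 74.6% in ESC, from 63.2% to 83.4% in ICM and from 83.9% to 94.6% in morula. In 4-cell control replicate 1 it went from 42.3% to 71.4%, but the other 4-cell control libraries had slightly less in the highest group, with 5.85% and 4.22% in replicate 2 and 2.35% and 2.06% in replicate 3. In 8-cell TBE the libraries differed, with 73.0% to 82.0% in replicate 1, 87.2% to 89.2% in replicate 2 and 45.2% to 62.5% in replicate 3. Regions of the highest group were shorter, with a median of 474 bp against 869 bp in the lowest. Median 8-cell fold enrichment was 3.69 in the lowest and 4.82 in the highest group. These are descriptions across regions of the same libraries, with no test.

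**Figure D4:**
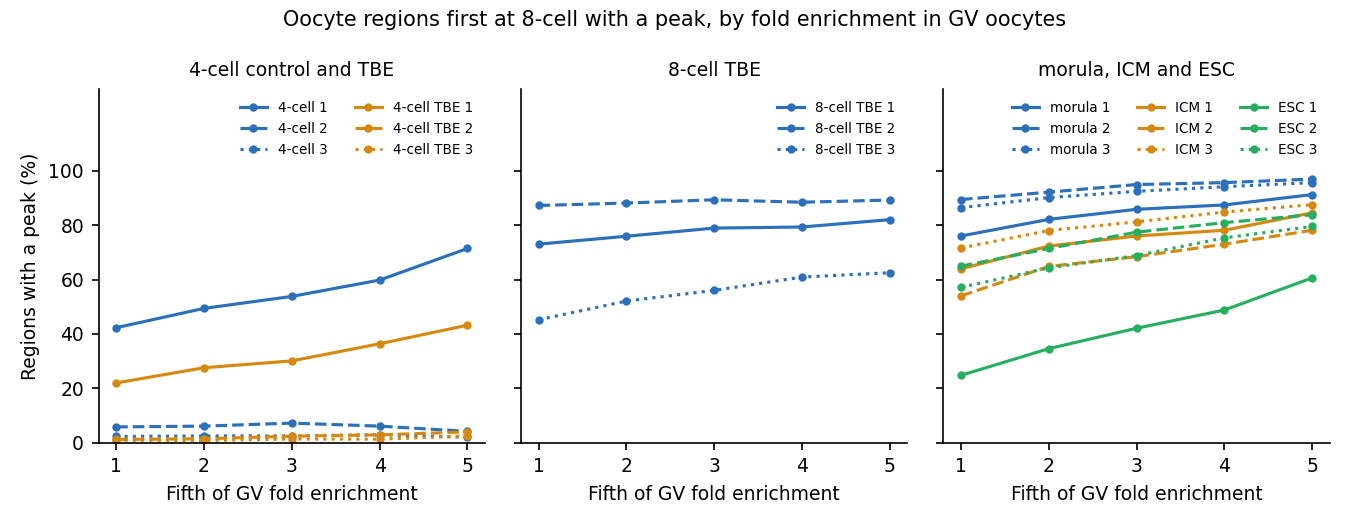
Share of 8-cell-first oocyte regions with a peak, in percent, over 5 groups of their mean fold enrichment in GV oocytes (2084 regions each), with a line for each library. ESC replicate 1 goes from 24.8% in the lowest to 60.6% in the highest group, and 8-cell TBE replicate 2 from 87.2% to 89.2%.

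The regions with a peak in 4-cell control replicate 1 and those without any 2- or 4-cell control peak differed in each later group. The 5766 regions with that peak were met at 83.8% ± 14.1 in 8-cell TBE, 94.8% ± 2.88 in morula, 85.9% ± 5.83 in ICM and 76.5% ± 17.5 in ESC (mean ± SD, n = 3). For the 3836 regions without any such peak the shares were 57.8% ± 21.4, 83.3% ± 7.66, 58.7% ± 7.45 and 43.7% ± 17.8. In 4-cell TBE replicate 1 the shares were 42.3% and 15.8%. Median GV fold enrichment was 4.31 and 4.00, and median length 742 and 560 bp. The split uses a library of the rule and was made after its values were seen, so it is given without a test.

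Single sites show the range of courses. Each of 4 lists was ranked by mean fold enrichment, and 17 different regions filled their 20 places, with coordinates on ARS-UCD1.2. All 17 had a peak in all 3 8-cell control libraries, as the lists required of 16 places, and all 17 had one in all 3 morula libraries, which no list used. Peaks in all 3 libraries were present at 13 of them in ICM and at 9 in ESC. Over all 8-cell-first regions the shares with peaks in all 3 libraries were 82.2% in morula, 60.2% in ICM and 40.5% in ESC. In 4-cell control replicate 1, 11 of the 17 had a peak, against 55.3% of all 8-cell-first regions. A peak in a 2-cell control library was present at 5 of the 17, against 4.47% of all 8-cell-first regions.

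The strongest 8-cell site that also had peaks in all 3 GV libraries lay on chromosome 3 from 15319853 to 15320610. Its fold enrichment was 10.0, 6.29 and 6.35 in GV oocytes and 10.1, 11.1 and 10.6 in 8-cell controls. In 8-cell TBE it was 4.47, 2.71 and 3.97, so a peak was present in each blocked 8-cell library but below every control. Medians over the 8-cell-first regions with a peak in the library were 3.60, 2.68 and 4.12 in 8-cell TBE and 3.96, 4.07 and 4.50 in 8-cell controls. Regions without a peak were left out, so the median of TBE replicate 3 rests on 5765 regions (55.3%). Being chosen for high control values, sites of this list say nothing about how TBE and control differ elsewhere. Morula had 11.8, 13.6 and 11.9, ICM 9.87, 7.60 and 10.3, and ESC 8.22, 11.4 and 9.79. Before the 8-cell stage a peak was present in 4-cell control replicate 1 (5.70), 4-cell TBE replicate 1 (3.36) and 2-cell TBE replicate 3 (5.07), and in no 2-cell control library.

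Another site of this list, on chromosome 10 from 98816157 to 98817119, had weak oocyte peaks of 4.07, 3.75 and 3.62 and rose to 11.1, 9.13 and 11.4 in 8-cell controls. It was 3.99, 3.71 and 3.45 in 8-cell TBE, near its level in oocytes. Morula had 7.79, 9.69 and 4.65 and ESC 3.82, 5.19 and 3.68, but ICM had no peak there in any library.

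On chromosome 1 from 81808703 to 81809115 the block and the control were fully apart. Fold enrichment was 8.18, 6.65 and 6.59 in GV oocytes and 11.3, 10.0 and 10.1 in 8-cell controls, and no TBE library of any stage had a peak. Later libraries all had one, at 9.05, 12.5 and 10.3 in morula, 9.04, 9.70 and 10.5 in ICM and 8.93, 9.87 and 8.23 in ESC. In 4-cell control replicate 1 the site had 8.18. It was placed both in the list of 8-cell controls and in the list of sites without an 8-cell TBE peak.

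A site on chromosome 7 from 15168579 to 15169013 was placed both by its oocyte and by its 8-cell values. It had 8.50, 9.40 and 7.68 in GV oocytes, 9.17, 9.85 and 11.2 in 8-cell controls and 3.56, 3.24 and 3.92 in 8-cell TBE. Means were 11.7 ± 0.589 in morula, 9.85 ± 0.993 in ICM and 8.93 ± 1.12 in ESC (SD, n = 3). As at chromosome 3, each 8-cell TBE library held a peak that was lower than in any control. The 8-cell list ended with chromosome 2 from 89924322 to 89924661 (9.85 ± 1.48 in 8-cell controls, no 8-cell TBE peak, 3.49 in 4-cell TBE replicate 1) and chromosome 23 from 28732848 to 28733202 (9.85 ± 1.30, with 8-cell TBE peaks of 6.74 and 4.22 in replicates 1 and 2).

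The strongest oocyte site lay on chromosome 5 from 56994555 to 56995173, with 8.91, 9.20 and 8.06 in GV oocytes. It had 6.92, 8.09 and 7.77 in 8-cell controls and 4.71, 3.21 and 3.36 in 8-cell TBE, and reached 11.6, 11.7 and 10.8 in morula. On the X chromosome from 90131060 to 90131617 the values were 8.16, 8.01 and 8.91 in GV oocytes, 11.5, 7.66 and 8.99 in 8-cell controls and 5.56, 5.15 and 5.90 in 8-cell TBE. On chromosome 2 from 125137186 to 125137597 GV oocytes had 8.47 ± 0.953, 8-cell controls 9.45 ± 0.786 and morula 10.4 ± 0.238 (mean ± SD, n = 3), and 8-cell TBE had peaks of 3.45 and 2.69 in replicates 1 and 2. A site on chromosome 19 from 58312871 to 58313197 was the exception among the 6 strongest oocyte sites, as its means in 8-cell controls (6.76) and morula (4.39) were both below that in oocytes (8.33). It had 8.73, 9.41 and 6.84 in GV oocytes, 5.90, 6.36 and 8.02 in 8-cell controls and 2.96, 5.47 and 4.73 in morula, with peaks in 2 of 3 libraries of ICM and of ESC.

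Sites with the strongest peaks in 8-cell TBE looked different. On chromosome 4 from 55292252 to 55292599 these TBE had 10.2, 7.36 and 10.5, compared with 8.83, 7.25 and 8.31 in 8-cell controls and 9.34, 9.81 and 5.79 in GV oocytes. The site stayed strong in ICM (11.6, 11.7 and 12.2) and ESC (13.0, 11.1 and 13.3). On chromosome 23 from 37518742 to 37519087 TBE had 9.25, 7.63 and 9.42 against 5.83, 6.37 and 6.98 in 8-cell controls, and this site had a peak in all 3 libraries of 2-cell TBE, at 4.85, 4.69 and 6.52, the only one of the 17 to do so. It also had a peak in 2-cell control replicate 3 (4.51) and in 4-cell control replicate 1 (6.21), but none in any ESC library. The others were chromosome 23 from 7204230 to 7204537, with 8.15 ± 2.27 in TBE and 5.38 ± 1.19 in 8-cell controls, and chromosome 18 from 59838724 to 59839155, with 8.03 ± 1.71 and 6.09 ± 0.928 (mean ± SD, n = 3). Being chosen for high TBE values, these sites likewise say nothing about other sites.

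The list of sites with no 8-cell TBE peak was led by chromosome 4 from 86383172 to 86383689. It had 9.19, 12.1 and 12.4 in 8-cell controls, 10.0, 8.27 and 8.96 in morula, and peaks of 3.41 and 3.34 in GV replicates 2 and 3 alone. In ESC it had no peak, in ICM one in replicates 1 and 2, and in 2-cell controls one in replicate 3 (3.67). On chromosome 13 from 78502604 to 78502908 the 8-cell controls had 10.7, 9.86 and 10.8, morula 10.2, 13.5 and 11.1 and ICM 8.20, 7.92 and 9.33, while ESC again had none. This site had a peak of 6.33 in 4-cell TBE replicate 1 and of 4.51 in 2-cell control replicate 3. On chromosome 18 from 49812951 to 49813953 the 8-cell controls had 7.53, 9.91 and 12.4, the ICM 7.37, 8.23 and 7.47, and ESC a peak of 4.55 in replicate 2 alone. Apart from the site on chromosome 1, the sites of this list had oocyte peaks in 2 of 3 GV libraries.

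**Figure D5:**
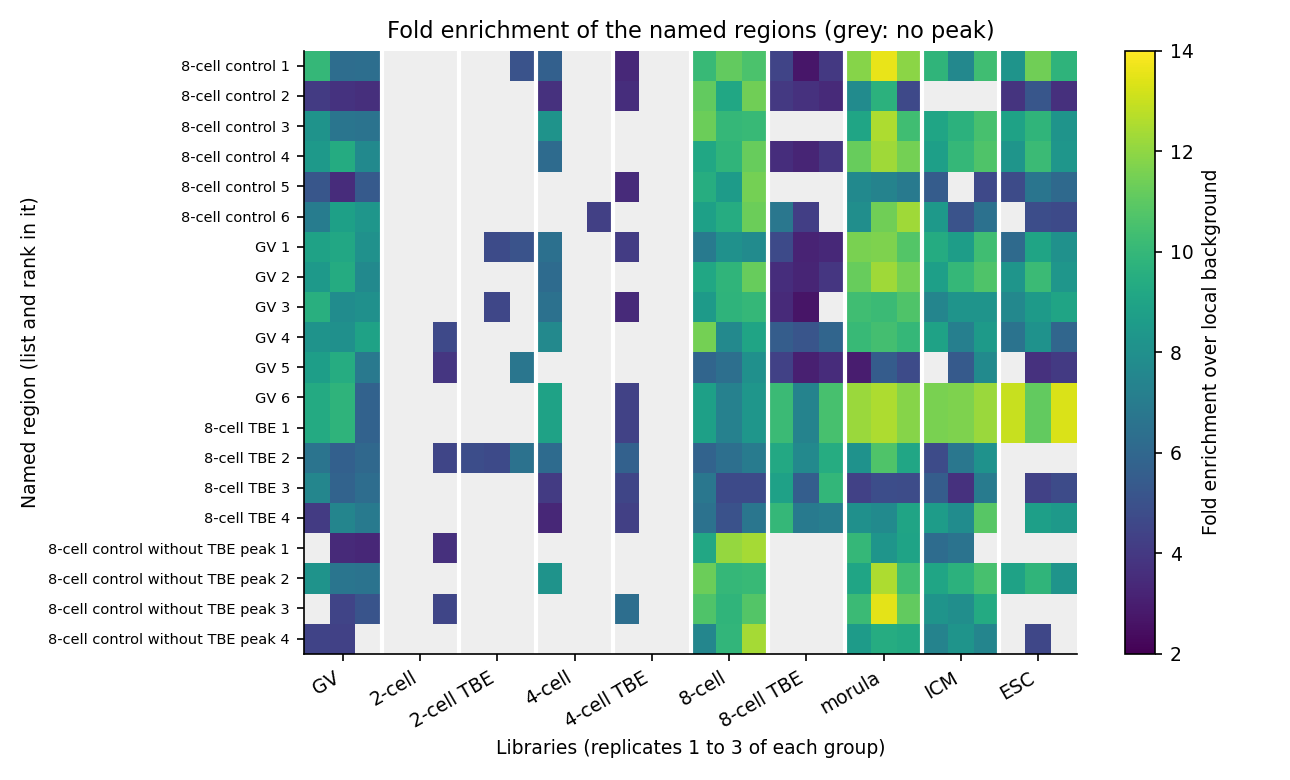
Fold enrichment over local background of the named 8-cell-first oocyte regions (rows, by list and rank) in each of 30 libraries (columns, replicates 1 to 3 of each group), with grey where the library had no peak. All rows have a peak in every 8-cell control and morula library, 5 of the 17 different regions have none in 8-cell TBE, and 3 of the 17 have none in ESC.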

How the data were processed

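The deposited data were 30 lists of broad peaks, 1 for each library. Per the labels and the study's methods, the authors trimmed reads with Trim Galore (cutadapt 0.4.0), aligned them with BWA 0.7.17 to ARS-UCD1.2 and took out PCR duplicates with PicardTools and alignments of low quality or to mitochondria with SAMtools 1.7. Broad peaks were then called by the authors with MACS2 2.1.1 at a q value of 0.05, shifting reads for the transposase. Fold enrichment, a ratio to the local background of a library, and −log10 p and −log10 q were computed by the authors as means over each peak, and the deposited score, 10 times −log10 q, was not used.

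Regions, overlaps and exact tests were computed in Python 3.11.15 (numpy 2.4.6, pandas 2.3.3) and tested on simulated data. A library had a peak at a region where they shared 1 bp, and the largest fold enrichment of such peaks was taken. Named regions were the 6 with the highest mean 8-cell control and the 6 with the highest mean GV value among regions with peaks in all GV and 8-cell control libraries, the 4 with the highest 8-cell TBE value among those with peaks in all 8-cell TBE libraries, and the 4 with the highest 8-cell control value among those with peaks in all 8-cell control and no 8-cell TBE libraries, on chromosomes only. The regions, lists and tests were chosen with earlier results of these data known. Alternatives were peaks with −log10 q or fold enrichment of at least 3, an overlap of 50%, regions from any 1 or all 3 replicates, autosomes only, longer lists shortened to their strongest peaks, each replicate left out, a replicate block, weighting, and those added after the data were seen. Genes, genic annotation, motifs and sequences were not analysed here, since no genome or annotation of ARS-UCD1.2 was used.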

Additional observations from a re-analysis of the deposited data

How the results depend on the processing

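The number of regions and 6 tested comparisons were recomputed under alternatives, 96 values in all, while the other tests, counts and descriptions were not. Of these, 89 left the call of the exact test and the direction unchanged or, for the number of regions, moved it by less than 1.5-fold, 6 changed the call or the number, and 1 reversed the direction. Where 3 libraries met 3, no exact test can pass 0.05, so only the direction could change. The number of 8-cell-first oocyte regions, 10420, was 1292 with lists longer than the shortest 4-cell control list shortened to its 14355 peaks, which left the 2-cell lists and 5 TBE lists as they were, and 3836 where a peak in any 2- or 4-cell control library barred a region, an alternative added after the data were seen. It was between 7545 and 10943 with a replicate left out. The difference between 8-cell TBE and held-out control, -14.1 points, ran from -13.8 to 1.89 with a replicate left out; the positive value came without replicate 3, and the cause was not tested. It was -20.8 points without 8-cell TBE replicate 2 (added after the data were seen), and other alternatives ran from -50.5 (lists shortened) to -7.75 points. Weighting the comparison regions by length and fold enrichment gave 52.0 points against 50.3 for the excess over new 8-cell regions under the block, and 38.6 against 42.2 in later libraries. With a replicate left out, the excess over new 8-cell regions was 21.2 to 23.1 points in held-out controls, against 6.02 with all 3 replicates, and the difference under the block 38.1 to 41.6 points. The difference from new 8-cell regions in 2- and 4-cell TBE, 7.95 points, was 12.0 to 18.0 with a replicate left out, where 4 libraries cannot go below p = 0.125 in the exact test, and 3.95 without 4-cell TBE replicate 1. ESC against morula, -27.7 points, ran from -25.3 to -13.0 with a replicate left out and was -16.0 with lists shortened. It was larger with regions from any 1 replicate (-33.3) and for regions without any 2- or 4-cell control peak (-39.7). The comparison with regions reopened at 4-cell, -16.4 points, ran from -35.1 to -6.84.

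Taking the replicate number as a block left the differences at -14.1, 50.3 and -27.7 points (8-cell TBE against control, the same relative to new 8-cell regions, and ESC against morula), with p = 0.500, 0.25 and 0.25 in exact sign-flip tests over 3 pairs, which cannot go below 0.25. Deviations from the group means over 8-cell regions correlated by 0.022, -0.034 and 0.020 between same-numbered 8-cell TBE and control libraries, and by 0.072, 0.077 and -0.008 between ESC and morula, and 3 of the 6 TBE and ESC libraries correlated best with their own number. Embryos were divided between TBE and control and cultured together, but the labels do not say that equal replicate numbers share a collection. Correlations this small cannot show or exclude it. The tests of 3 against 3 libraries treated the libraries as unpaired, with the block as the alternative. Peak lists without read counts limit what a missing peak means: in a short list, such as those of 2-cell embryos, an open site can lack a peak.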
